A study of Mus musculus with 2 samples.

Results

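Inflammatory monocytes are freshly recruited blood monocytes that make inflammatory cytokines in a tissue, and 167 of the 14898 cells that passed the quality limits were taken as such cells here. The cells were selected on their own measured UMIs: a cell was chosen when at least 3 of the 6 genes Chil3, Fn1, Ccr2, Thbs1, Il1b and Cd14 each had at least 1 unique molecular identifier (UMI, 1 counted mRNA molecule). It also had to hold under 3 UMIs of the complement genes C1qa, C1qb and C1qc together, none of Cd3d, Cd3e and Cd3g, and under 10 of the plasma cell genes Mzb1, Derl3 and Xbp1. There were 68 such cells among 7941 in mouse 1 and 99 among 6957 in mouse 2, out of 18445 deposited cell barcodes. They made up 0.856% of the kept cells in mouse 1 (95% exact binomial interval 0.666 to 1.08%) and 1.42% in mouse 2 (1.16 to 1.73%), and 1.10% and 1.53% when set against the kept cells with a UMI of Ptprc (CD45, the surface marker of all blood-derived cells) alone. When every cell was first thinned to 1000 UMIs, the shares of all kept cells were 1.01% and 1.85%. These intervals cover counting error only.

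The single-cell RNA sequencing was done on all live cells of the proximal small intestine of 2 VilCreER Apc fl/fl mice. In these animals a tamoxifen-activated Cre driven by the villin promoter, which is active in the gut epithelium, removes Apc, the brake on Wnt signalling, so that the monocytes themselves were not the target cells of the deletion. Both mice received 2 intraperitoneal doses of 2 mg tamoxifen 24 h apart and were sampled on day 4. Mice with intact Apc were not analysed here and the ages of the animals were not given in the sources used here, so the tests below are between kinds of cells within the same 2 animals, the mice are set side by side without a test, and no value measures the effect of losing Apc.

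Monocytes leave the bone marrow with the help of CCR2, the receptor for CCL2, and enter the intestine continuously. In the quiet gut wall they lose Ly6C, gain MHC class II and mature within days into C1q-expressing resident macrophages, which clear dying cells with little inflammation. In an inflamed gut they stay closer to their blood state and release IL-1β, oncostatin M, chemokines and clotting and matrix proteins.

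The label was checked on 8 monocyte markers outside the selection rule. All of Ly6c2, Lyz2, Plac8, F13a1, Vcan, Itgam, Csf1r and Ms4a4c were detected in both mice, and together they summed to 14743 and 13957 counts per 1e6 UMIs (CPM, the scale of every level below; mouse 1 is always given before mouse 2) against 892 and 1134 CPM in all other kept Ptprc-positive cells. The gap to the nearest classes, described below, was smaller. Their sums were 6274 and 6777 CPM in C1q-positive macrophages and 3588 and 4326 CPM in dendritic cells. Lyz2, at 8577 and 8137 CPM, and Plac8, at 3688 and 3393 CPM, led the sum of the chosen cells. The chosen cells held a median of 8697 and 6659 UMIs and 2609 and 2051 genes, compared with 4239 and 2782 UMIs in the other Ptprc-positive cells. 3 cells of mouse 1 and 2 of mouse 2 had no Ptprc UMI. CPM values are not corrected for transcript length, so levels are compared between cells and not between genes.

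Markers of other cells were also present and differed between the libraries. The 8 neutrophil markers were S100a8, S100a9, Csf3r, Cxcr2, Retnlg, Ly6g, Mmp8 and Lcn2. These markers summed to 2174 CPM in mouse 1 and 366 CPM in mouse 2, against 57.1 and 60.3 CPM in the other Ptprc-positive cells, and 15 cells in each mouse held at least 2 of them. S100a9, a calcium-binding protein of neutrophils and of some monocytes, shows how uneven this was: of its 614 UMIs in mouse 1, 540 came from 1 cell, and Retnlg and Ly6g were at 0 in mouse 2. The 6 epithelial markers summed to 873 and 26.7 CPM and the 5 pancreatic acinar markers to 588 and 0 CPM, while Jchain and Igha, abundant in plasma cells, were seen in every chosen cell of mouse 1. T cell markers summed to 6.59 and 7.40 CPM, fibroblast markers to 0 and 4.44 CPM, mast cell markers to 4.94 and 0 CPM, eosinophil markers to 11.5 and 13.3 CPM, natural killer and innate lymphoid markers to 49.4 and 10.4 CPM, endothelial markers to 21.4 and 11.8 CPM, B cell markers to 21.4 and 42.9 CPM, and platelet markers to 0 and 1.48 CPM. The dendritic markers summed to 260 and 197 CPM with Xcr1 at 0 in both mice. In each mouse this sum was above that of the other Ptprc-positive cells and below that of the dendritic cells. 4 chosen cells of mouse 1 and 0 of mouse 2 held at least 3 of the 8 dendritic markers, the limit of the dendritic gate. Some deep cells of mouse 1 also held few Lyz2 UMIs, such as 6 in the cell with 27777 UMIs. The macrophage markers summed to 1921 and 2027 CPM, led by Apoe, with 8 and 15 cells holding 1 or 2 C1q UMIs. The plasma cell markers summed to 1543 and 779 CPM. The rule itself held the Cd3 genes at 0 and limited the C1q and plasma cell genes, so the T cell, macrophage and plasma cell sums are partly set by it. The part of other cells' RNA in the results was not tested, and values without the cells that hold 2 neutrophil markers are given where a result rests on them. Leaving these cells out removes UMIs of the 8 neutrophil markers themselves partly by definition. The doublet caller Scrublet marked 5 and 3 barcodes in all (0.0630% and 0.0431%), too few to have worked, and none was a monocyte. 24 deposited barcode sequences occurred in both libraries, 1 of them in a monocyte of mouse 2.

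The 6 genes that chose the cells are described without a test. All 6 were seen together in 17 and 32 cells, 5 of them in 23 and 29, 4 in 14 and 24, and 3 in 14 and 14. Il1b, the gene of the fever cytokine IL-1β, was found in 89.7% and 76.8% of the cells at 2906 and 3071 CPM, and its median was 14 and 8 UMIs with a highest cell of 200 and 110 UMIs. Ccr2 was found in 85.3% and 88.9% at 888 and 839.6 CPM and Cd14, the lipopolysaccharide co-receptor, in 86.8% and 78.8% at 1179 and 841 CPM. Chil3, which encodes the chitinase-like protein Ym1, was found in 61.8% and 77.8% of the cells at 1074 and 2269 CPM. Fn1 (fibronectin) was found in 70.6% and 90.9% at 694 and 1155 CPM, and Thbs1 (thrombospondin 1) in 69.1% and 66.7% at 863 and 1365 CPM. All 6 genes were therefore high in both mice, but no 1 of them marked every cell. In T cells, which should lack these genes, the shares of cells with a UMI ran from 0.878% for Chil3 to 4.23% for Il1b in mouse 1, at a median depth of 3329 UMIs, and from 0.794% for Chil3 to 2.14% for Il1b in mouse 2, at 2608 UMIs. After thinning to 1000 UMIs per cell, which left out 2 and 1 of the monocytes, Chil3 was seen in 39.9% and 62.2% of the monocytes and 0.272% and 0.484% of the T cells, and Il1b in 69.9% and 61.8% and 1.97% and 1.14%.

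**Figure D1:**
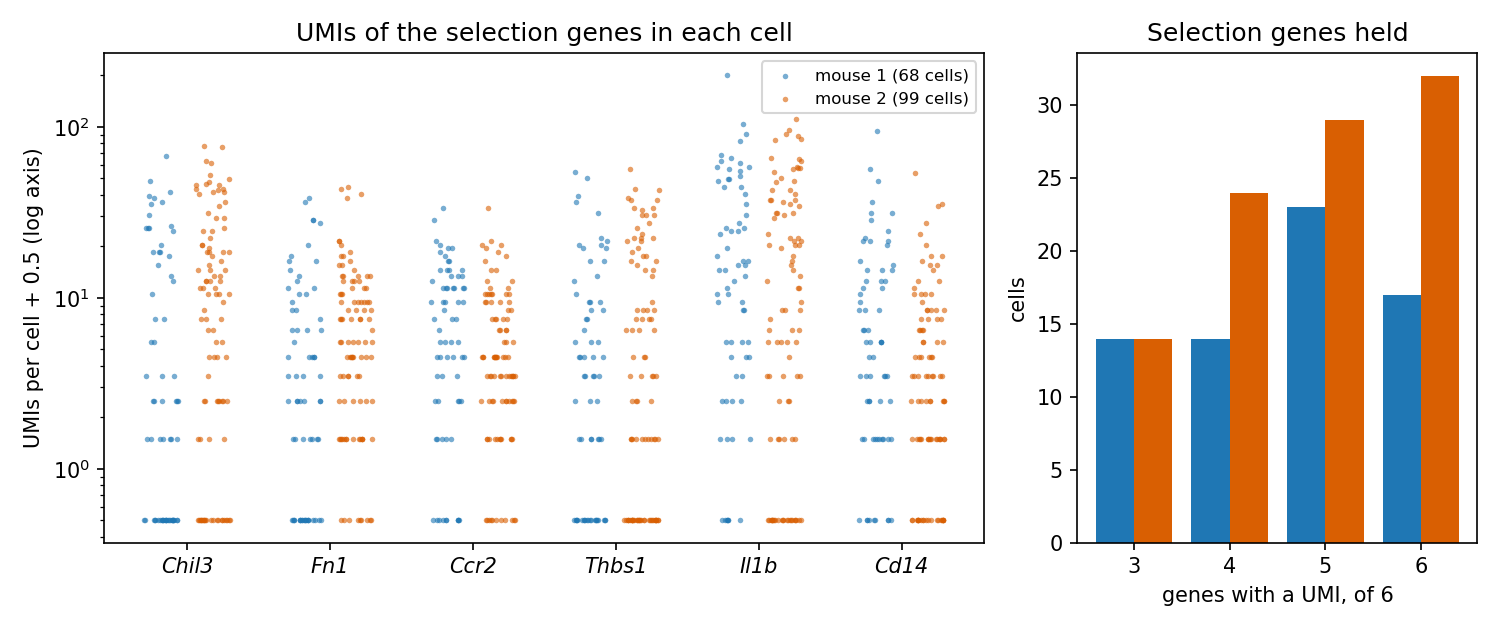
Left, UMIs plus 0.5 (log axis) of the 6 selection genes in each monocyte (a point each) by mouse; right, number of monocytes by how many of the 6 genes they held. Il1b reaches 200 UMIs in mouse 1 and 110 UMIs in mouse 2, every gene has cells at 0, and 17 and 32 cells held all 6.

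Cells just outside and just inside the threshold differed in some markers and not in others, by description only. Among Ptprc-positive cells that met every other condition, 42 and 23 held 2 of the 6 genes, and 11 and 12 held 3. Lyz2, which encodes the lysozyme of myeloid cells, was at 252 and 1330 CPM with 2 genes and at 1293 and 6164 CPM with 3. Ly6c2, the monocyte surface protein Ly6C, went the other way, at 658 and 840 CPM with 2 genes and 319 and 215 CPM with 3, and Cd74, the MHC class II invariant chain, was at 14820 and 5515 CPM with 2 genes against 9764 and 3043 CPM with 3. Plac8 was at 2628 and 4309 CPM with 2 genes and 3190.4 and 3140.3 CPM with 3, and Itgam at 226 and 232 CPM with 2 genes and 227 and 546 CPM with 3. Of all cells with at least 3 of the genes, 114 and 101 were left out for their C1q UMIs, 44 and 57 for Cd3 UMIs and 40 and 49 for plasma cell UMIs, and a cell can count under more than 1 of these.

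Against all other kept Ptprc-positive cells (5840 and 6233, mostly T and plasma cells), the monocytes were higher in monocyte, cytokine, chemokine, sensing and clotting genes and lower in cell cycle genes. Of 12453 genes tested by edgeR's quasi-likelihood test on UMIs summed per mouse, 1076 were higher (8.64%) and 992 lower (7.97%) at a Benjamini-Hochberg adjusted p under 0.05, and all of these had the same sign in both mice. With the mouse as a block the counts were 1689 higher and 2256 lower, and with the monocytes of mouse 2 left out 534 and 386. Simulated counts for this comparison gave a call to 29% of genes changed 4-fold and 1% of genes changed 2-fold. A gene that did not pass here is thus not shown to be equal. In the simulated counts 100 of 12468 genes were changed 4-fold and 100 were changed 2-fold. Those are fewer genes than were called here, and the adjusted p depends on that number, so the simulated shares need not hold for the real counts. The median fitted log2 difference over all genes was −0.25, and the other cells included 1689 and 529 plasma cells whose immunoglobulin mRNA lowers the CPM of every other gene. These plasma cells held 41834424 of the other cells' 60325654 UMIs in mouse 1 and 11200662 of 29849205 in mouse 2. T cells held 12838932 and 16145709. The summed levels of the other cells thus weigh these classes by UMIs, and differently in the 2 mice. Of the 85 genes named by the rule, 11 lost their call when the monocytes of 1 mouse were left out, namely Acod1, Cd40, Cd81, Fth1, Hk3, Hspa8, Il23a, Mertk, Rsad2, Tnip3 and Trem2. The genes of a group go with the selection genes in the same cells, so these tests describe the chosen cells and do not by themselves support their name. The rule also kept cells with a Cd3 UMI or at least 10 UMIs of the plasma cell genes out of the monocytes. Lower levels of genes of T and plasma cells are therefore partly set by the rule.

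Monocyte identity genes were the clearest group, with 20 of 22 higher, none lower and a median log2 difference of 3.53. F13a1 (chr13:36867178-37050244, minus strand, mm10), which encodes the A subunit of clotting factor XIII, was at 288 and 299 CPM in the monocytes and 1.96 and 5.59 CPM in the other cells (log2 difference 5.97 ± 0.40, adjusted p = 0.0024). Its 175 and 202 UMIs were spread over 27 and 42 cells, so both mice and many cells carried the difference. Vcan, the matrix proteoglycan versican made by classical monocytes, was at 283 and 258 CPM against 2.57 and 7.07 CPM (5.49 ± 0.38, adjusted p = 0.0024). Hp (haptoglobin, a haemoglobin scavenger) was at 329 and 201 CPM against 3.98 and 7.87 CPM (5.11 ± 0.34, adjusted p = 0.0024). Lyz2 was at 8577 and 8137 CPM against 254 and 461 CPM (4.17 ± 0.29, adjusted p = 0.0024). In none of these genes did the levels of the 2 kinds of cells overlap. Ly6c2 did not pass, at 717 and 539 CPM against 222 and 96.2 CPM (1.38 ± 0.58, adjusted p = 0.15), and neither did Fcer1g, an Fc receptor chain that T cells here also held, at 2344 and 2991 CPM against 415 and 1208 CPM (1.42 ± 0.37, adjusted p = 0.0513).

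Of 15 myeloid transcription factors, 10 were higher and none lower (median 2.46). Nr4a1, an orphan nuclear receptor induced within minutes of stimulation and needed for patrolling monocytes, was at 522 and 656 CPM against 24.3 and 39.4 CPM (3.82 ± 0.27, adjusted p = 0.0024). Cebpb, a driver of inflammatory gene expression, was at 1685 and 2269 CPM against 86.6 and 156 CPM (3.66 ± 0.30, adjusted p = 0.0025) and was detected in 94.1% and 100% of the monocytes. Irf8 and Irf4, factors of dendritic and B lineage cells as well, were among the 5 that did not pass.

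**Figure D2:**
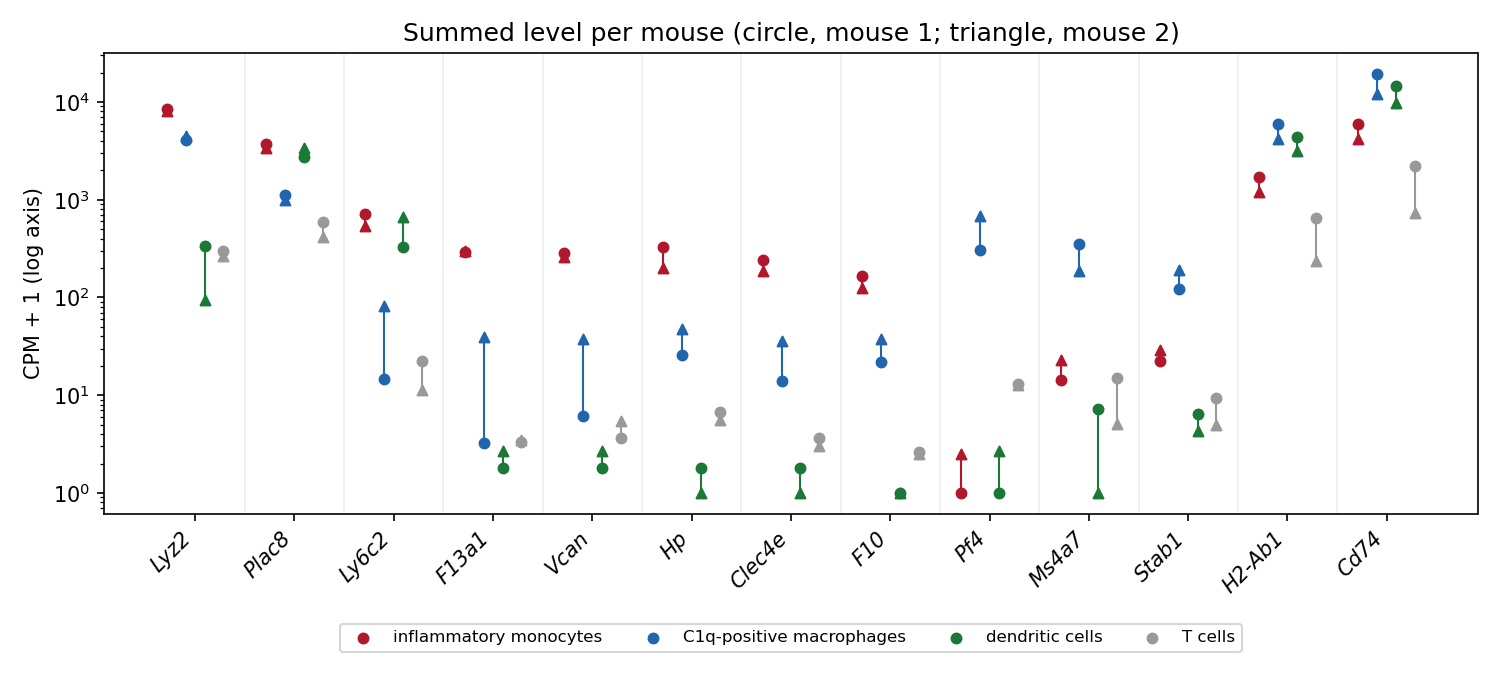
Level (CPM plus 1, log axis) of genes outside the rule in the summed UMIs of the monocytes, the C1q-positive macrophages, the dendritic cells and the T cells, 1 point a mouse (circle, mouse 1; triangle, mouse 2). F13a1 lies at 288 and 299 CPM in the monocytes and lower in every other class drawn, whereas Cd74, at 5889 and 4157 CPM, lies below the macrophages and the dendritic cells.

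The cytokine genes were higher in 9 of 15 tested members and lower in none (median 2.66). Osm, which encodes oncostatin M, an IL-6 family cytokine that acts on stromal cells, was at 346 and 419 CPM in the monocytes against 5.59 and 22.5 CPM elsewhere (4.50 ± 0.52, adjusted p = 0.00492). It was detected in 36 and 38 cells. Il1rn, the natural IL-1 receptor antagonist, was at 181 and 244 CPM against 7.48 and 7.91 CPM (4.33 ± 0.35, adjusted p = 0.00247), so the cells held mRNA of both the agonist IL-1β and its antagonist. Il6 was low, at 49.4 and 25.2 CPM against 0.365 and 1.64 CPM (4.96 ± 0.66, adjusted p = 0.00735), with 30 UMIs in 9 cells and 17 in 6. Tgfb1, the immunosuppressive cytokine TGF-β1, was at 573 and 723 CPM against 61.3 and 106 CPM (2.58 ± 0.26, adjusted p = 0.0035). Tnf, the gene of tumour necrosis factor, was at 9.88 and 38.5 CPM against 2.85 and 2.78 CPM (2.66 ± 0.67, adjusted p = 0.0466), and 22 of its 26 UMIs in mouse 2 came from 1 cell, with 3 UMIs left there without the cells that hold 2 neutrophil markers. Il23a was called at 26.4 and 5.92 CPM against 0.232 and 0.201 CPM (5.64 ± 0.92, adjusted p = 0.0134), but its 16 and 4 UMIs came from 1 cell in each mouse and both cells hold 2 neutrophil markers. The call was also lost without the monocytes of mouse 1. Neither Il10 nor Il12b had a UMI in the chosen cells, which allows up to 3 UMIs in 607069 and 675297, and neither did the nitric oxide synthase Nos2.

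Chemokines were higher in 9 of 18 tested members and lower in 2 (median 2.18). Ccl6 and Ccl9, CCR1 ligands made by mouse myeloid cells, were at 1038 and 1134 CPM against 25.6 and 64.8 CPM (4.26 ± 0.34, adjusted p = 0.00247) and at 169.7 and 384 CPM against 3.56 and 13.2 CPM (4.79 ± 0.63, adjusted p = 0.0074). Cxcl2, a neutrophil attractant, was at 1380.4 and 1188 CPM against 80.3 and 80.2 CPM (3.53 ± 0.31, adjusted p = 0.00266) in 23 and 29 cells. Ccl2, the ligand of CCR2 itself, was at 425 and 99.2 CPM against 8.09 and 5.06 CPM (4.74 ± 0.81, adjusted p = 0.0152), and 1 cell held 106 of its 258 UMIs in mouse 1. Cxcl2 and Ccl2 were thus each seen in a minority of the monocytes. Cxcl10, an interferon-induced T cell attractant, was at 24.7 and 326 CPM against 15.7 and 11.4 CPM and did not pass (3.22 ± 1.08, adjusted p = 0.094), with 141 of its 220 UMIs in mouse 2 in 1 cell. Ccl5, a chemokine of cytotoxic T cells, was lower at 65.9 and 82.9 CPM against 3831 and 10461 CPM (-6.90 ± 0.46, adjusted p = 0.0024), and Pf4, with 0 and 1 UMI in the monocytes, was lower by a pooled ratio of 24.6 (95% exact interval 4.42 to 974) (adjusted p = 0.0159), a call lost when the comparison classes were weighted equally (adjusted p = 0.131).

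Receptors and innate sensors followed the same direction. Of 22 chemokine and cytokine receptors 16 were higher and 1 lower (median 2.27), and of 22 sensing and inflammasome genes 14 were higher and none lower (median 2.38). Clec4e, which encodes Mincle, a receptor for mycobacterial glycolipid and for dying cells, was at 239 and 185 CPM against 2.80 and 4.96 CPM (5.38 ± 0.27, adjusted p = 0.0024). Tlr2, the receptor for bacterial lipoproteins, was at 87.3 and 93.3 CPM against 2.49 and 4.69 CPM (4.28 ± 0.27, adjusted p = 0.0024), and Nlrp3, the sensor of the inflammasome that matures IL-1β, at 87.3 and 127 CPM against 6.61 and 8.64 CPM (3.40 ± 0.31, adjusted p = 0.00275). For all 3, both monocyte values lay above both values of the other cells. Fpr2, a receptor for bacterial formyl peptides, was at 34.6 and 31.1 CPM against 0.713 and 1.71 CPM (4.42 ± 0.42, adjusted p = 0.00291), and Csf3r, the G-CSF receptor, at 64.2 and 60.7 CPM against 2.93 and 3.52 CPM (3.83 ± 0.30, adjusted p = 0.00247). Without the cells that hold 2 neutrophil markers, of which Csf3r is itself 1, it stood at 37.6 and 28.7 CPM. Casp1, the protease that cuts IL-1β, did not pass, at 41.2 and 23.7 CPM against 20.6 and 22.6 CPM (0.12 ± 0.35, adjusted p = 0.845). Ccr9, the small intestine homing receptor of lymphocytes, was the receptor that was lower, at 16.5 and 2.96 CPM against 123 and 285 CPM (-4.78 ± 0.61, adjusted p = 0.00657).

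NF-κB is a family of transcription factors that switches on inflammatory genes and, with them, its own inhibitors. Of 21 genes of this response 16 were higher and none lower (median 1.78). Ier3, an early survival gene, was at 512 and 538 CPM against 9.12 and 26.8 CPM (4.56 ± 0.39, adjusted p = 0.00258). Nfkbia, which encodes the inhibitor IκBα, was at 771 and 582 CPM against 146 and 108 CPM (1.89 ± 0.40, adjusted p = 0.0273), and Zfp36, which encodes the mRNA-destabilising protein tristetraprolin, was at 1869.6 and 2421 CPM against 209 and 235 CPM (2.83 ± 0.31, adjusted p = 0.00411). Target genes and brakes of the pathway were thus both higher. Tnfaip3, the ubiquitin-editing inhibitor A20, was at 125 and 121 CPM against 31.5 and 43.3 CPM (1.30 ± 0.22, adjusted p = 0.0152), whereas Relb and Nfkb2, of the noncanonical branch, did not pass (0.49 ± 0.45, adjusted p = 0.483; 0.68 ± 0.38, adjusted p = 0.249). Tnip3 lost its call without the monocytes of mouse 1.

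The promoters of these genes are shown because genes of the NF-κB list and chemokines were higher together. In the 250 bases before the start of each gene in RefSeq (GRCm38.p6), the NF-κB consensus spelled GGGAANNNCC, read on either strand, occurred in 1624 of 32851 promoters (4.94%). It occurred in 5.92% of the promoters of tested genes and 6.65% of those of genes called higher. Of the matched genes, 7 of 18 on the NF-κB list, 5 of 13 chemokines and 2 of 10 cytokines had it in at least 1 promoter, against 7.01% of all tested genes. Among the chemokines with a match only Cxcl2 was called higher. Cxcl3, Cxcl9 and Cxcl10 were not called and Cxcl1 was not tested. On the NF-κB list Nfkbia, Nfkbid, Rel, Tnfaip3 and Tnip3 had a match and were called higher, and Nfkb2 and Tnip1 had one and were not. The promoters printed below are all of genes called higher. The lists were partly drawn from known NF-κB targets, so this share is a description, and a match is not shown to be a bound site. The promoters of Cxcl2 (chr5:90903649-90903898, plus strand), Nfkbia (chr12:55492648-55492897, minus strand) and Il6 (chr5:30012864-30013113, plus strand) are given 5′ to 3′ up to the base before the start, with the matches in capitals.
Cxcl2: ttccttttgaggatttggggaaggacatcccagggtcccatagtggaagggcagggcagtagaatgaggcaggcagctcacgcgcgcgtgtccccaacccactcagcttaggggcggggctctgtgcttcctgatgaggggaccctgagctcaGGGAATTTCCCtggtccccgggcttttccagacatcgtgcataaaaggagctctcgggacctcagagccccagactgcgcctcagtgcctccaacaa
Nfkbia: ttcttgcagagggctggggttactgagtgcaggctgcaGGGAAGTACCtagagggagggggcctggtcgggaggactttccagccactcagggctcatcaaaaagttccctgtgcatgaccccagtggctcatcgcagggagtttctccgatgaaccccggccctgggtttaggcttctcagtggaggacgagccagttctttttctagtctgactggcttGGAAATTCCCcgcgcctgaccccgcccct
Il6: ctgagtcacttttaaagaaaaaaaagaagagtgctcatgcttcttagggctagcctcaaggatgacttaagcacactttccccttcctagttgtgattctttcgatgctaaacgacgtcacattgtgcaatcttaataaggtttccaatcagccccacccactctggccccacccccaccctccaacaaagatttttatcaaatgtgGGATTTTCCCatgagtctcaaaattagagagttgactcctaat

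In Cxcl2 the 2 matches overlap as a near-palindrome, 97 and 96 bases before the start, where the first base of a match is counted. In Nfkbia they lie at 212 and 29 bases, and in Il6 the single match lies at 43 bases. The 3 genes stood at 1380.4 and 1188 CPM, 771 and 582 CPM and 49.4 and 25.2 CPM in the monocytes.

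Interferon response genes were higher in 11 of 21 and lower in none (median 1.62). Ifi204, a DNA sensor of the p200 family, was at 221 and 290.2 CPM against 10.0 and 14.7 CPM (3.97 ± 0.28, adjusted p = 0.0024). Isg15, a ubiquitin-like protein induced by type I interferon, was at 280.0 and 332 CPM against 57.2 and 47.4 CPM (2.05 ± 0.36, adjusted p = 0.0168). Irf1 and Gbp5 were among the 10 that did not pass, and Rsad2, an antiviral enzyme, lost its call without the monocytes of mouse 2 (11.5 and 94.8 CPM against 2.83 and 5.86 CPM).

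Matrix, clotting and repair genes had the highest median of the 20 lists, 3.65, with 14 of 20 tested members higher and none lower. F10, which encodes clotting factor X, was at 163 and 124 CPM against 2.60 and 3.92 CPM (5.05 ± 0.26, adjusted p = 0.0024). F5, its cofactor, was at 14.8 and 22.2 CPM against 0.133 and 0.369 CPM (5.89 ± 0.68, adjusted p = 0.00482), and F13a1 was given above. The genes of 3 clotting factors were thus all higher in the monocytes of both mice. Tgfbi, a collagen-binding matrix protein, was at 575 and 807 CPM against 23.1 and 46.3 CPM (3.96 ± 0.32, adjusted p = 0.0025), and Vegfa, the angiogenic growth factor, at 112 and 158 CPM against 4.74 and 8.74 CPM (3.96 ± 0.31, adjusted p = 0.00247). Hbegf, an EGF receptor ligand for epithelial cells, was at 124 and 85.9 CPM against 3.56 and 6.20 CPM (4.03 ± 0.27, adjusted p = 0.0024). Arg1 and Spp1, often used to mark repair-type macrophages, did not pass, at 14.8 and 13.3 CPM against 5.75 and 2.91 CPM (1.12 ± 0.69, adjusted p = 0.289) and at 11.5 and 127 CPM against 7.33 and 8.58 CPM (2.72 ± 0.90, adjusted p = 0.0904). C3, the central complement component, was among the strongest genes outside the lists, at 159.8 and 127 CPM against 1.94 and 3.75 CPM (5.28 ± 0.28, adjusted p = 0.0024).

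Killing and digestion genes were also higher. Of 13 NADPH oxidase and killing genes 11 were higher and none lower (median 2.29), and Slc11a1, a metal transporter of the phagosome, was at 107 and 123 CPM against 5.40 and 8.81 CPM (3.63 ± 0.25, adjusted p = 0.0024). Lcn2, an iron-siderophore binding protein of neutrophils, was called at 57.7 and 22.2 CPM, but none of its 35 and 15 UMIs remained without the cells that hold 2 neutrophil markers. Lcn2 is itself 1 of these markers, so its loss is partly set by the choice of cells. Acod1, which makes itaconate, lost its call without the monocytes of mouse 1 and also without those neutrophil-marker cells. Of 14 lysosomal genes 10 were higher and none lower (median 1.53), with Psap, the precursor of the saposins, at 2609 and 3194 CPM against 316 and 478 CPM (2.47 ± 0.26, adjusted p = 0.00388). Of 10 iron and haem genes 2 were higher and none lower (median 0.74): Nfe2l2, the oxidative stress factor NRF2, and Fth1, the ferritin heavy chain, the latter lost without the monocytes of either mouse.

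Among metabolic genes, glycolysis was higher in 9 of 18 and lower in 2 (median 1.27). Slc16a3, the lactate exporter MCT4, was at 70.8 and 50.3 CPM against 2.82 and 5.23 CPM (3.53 ± 0.31, adjusted p = 0.00258), and Slc2a1, the glucose transporter GLUT1, at 60.9 and 50.3 CPM against 5.07 and 8.04 CPM (2.68 ± 0.27, adjusted p = 0.00339). The related transporter gene Slc2a3 was lower, at 6.59 and 2.96 CPM against 9.80 and 21.3 CPM (-2.08 ± 0.51, adjusted p = 0.0426). Of 11 eicosanoid genes 4 were higher and 1 lower (median 0.92). Alox5ap, the activating protein of leukotriene synthesis, was at 680.3 and 853 CPM against 30.0 and 62.1 CPM (3.71 ± 0.30, adjusted p = 0.00249), and Ptgs2, cyclooxygenase 2, at 242 and 407 CPM against 13.1 and 30.5 CPM (3.57 ± 0.40, adjusted p = 0.00439). Hpgds, the prostaglandin D2 synthase, was lower by a pooled ratio of 24.4 (95% exact interval 6.75 to 202) (adjusted p = 0.0101). None of the 9 tested methionine cycle genes passed (median 0.03), at counts of 0 higher and 0 lower, which does not show them to be equal. Ahcy, which hydrolyses S-adenosylhomocysteine, had 1 and 3 UMIs in the monocytes (1.65 and 4.44 CPM against 2.29 and 1.84 CPM), and Apc, whose deletion was aimed at the epithelium, was at 24.7 and 8.88 CPM against 23.5 and 35.7 CPM (-1.25 ± 0.43, adjusted p = 0.0991).

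MHC class II and co-stimulation genes divided within the list. Of 12 genes 6 were higher and none lower (median 1.53): the co-stimulatory receptors Cd80, Cd86 and Cd40, the protease Ctss, and the peptide editors H2-DMa and H2-DMb1. Cd80 was at 52.7 and 65.2 CPM against 4.76 and 6.97 CPM (2.92 ± 0.29, adjusted p = 0.00331), and Cd40 lost its call without the monocytes of mouse 2. The antigen-presenting chains themselves did not pass, with H2-Ab1 at 1719.7 and 1196 CPM against 606 and 491 CPM (0.90 ± 0.37, adjusted p = 0.145). Class II was unevenly spread among the cells: its summed level per cell had a median of 464 and 0 CPM, a 75th percentile of 6040 and 2334 CPM and a highest cell of 27027 and 22310 CPM. The part of the 4 cells of mouse 1 with at least 3 dendritic markers in this spread was not tested.

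The remaining lists were mixed. Tissue macrophage genes were higher in 9 of 21 and lower in 1 (median 1.11), with Apoe, the lipid carrier, at 1735 and 1852 CPM against 455 and 398 CPM (1.58 ± 0.33, adjusted p = 0.028). Trem2, Mertk and the lower gene Cd81 lost their calls without the monocytes of mouse 2, and Cd81 also without those of mouse 1. Immediate early genes were higher in 4 of 14 (median 1.29), led by Atf3, a stress-induced repressor, at 909 and 754 CPM against 48.3 and 58.4 CPM (3.52 ± 0.26, adjusted p = 0.00243). Of 14 integrin and adhesion genes 7 were higher and 3 lower (median 0.95). Itgam, the CD11b chain of complement receptor 3, was at 432 and 563 CPM against 23.4 and 44.3 CPM (3.52 ± 0.29, adjusted p = 0.00251), while Itgae, the CD103 chain that ties lymphocytes to epithelium, was lower at 4.94 and 1.48 CPM against 180.1 and 517 CPM (-7.11 ± 0.59, adjusted p = 0.0025).

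Cell cycle genes were lower in 5 of 12 and higher in none (median −3.29, or −2.95 with a gene at 0 set to its bound). Mki67, which encodes the proliferation antigen Ki-67, had 2 and 1 UMIs in the monocytes and 2017 and 1412 in the other cells (adjusted p = 0.00292). Stmn1, a microtubule regulator of dividing cells, was lower by a pooled ratio of 21.7 (95% exact interval 6.01 to 179) (adjusted p = 0.00258). Several T cell genes had no UMI in any monocyte, which the rule partly sets by keeping out cells with a Cd3 UMI. Cd96, a receptor of T and natural killer cells, was at least 12.7-fold lower (adjusted p = 0.00614), and Bcl11b, the T lineage factor, at least 11.2-fold lower (adjusted p = 0.00249), at a floor of 3 UMIs per library. When the other cells were instead averaged over their gated classes with equal weight, both of these calls were lost.

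**Figure D3:**
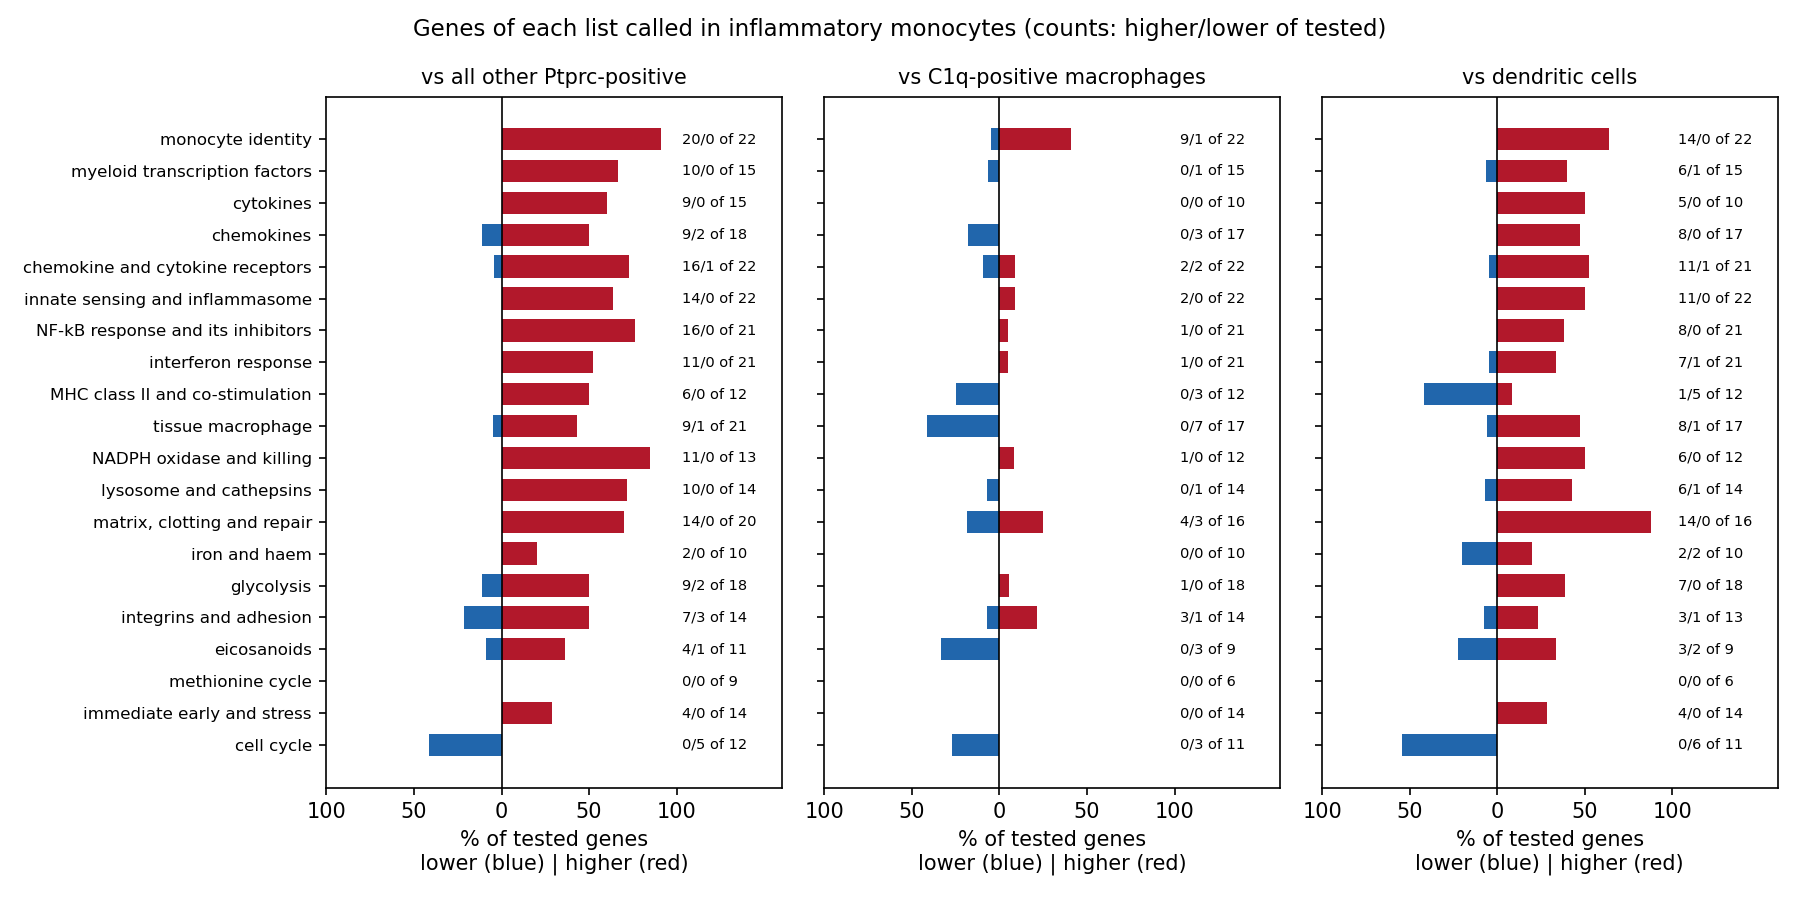
Share of the tested genes of each of the 20 lists called higher (red, to the right) or lower (blue, to the left) in the monocytes against each of the 3 comparison classes, in percent, with the counts printed beside the bars. The monocyte identity list has 20 of 22 genes higher against all other Ptprc-positive cells, 9 of 22 against the macrophages and 14 of 22 against the dendritic cells.

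The C1q-positive macrophages (281 and 154 cells with at least 3 C1q UMIs) differed from the monocytes in few called genes, with blood monocyte genes higher and mature macrophage and class II genes lower in the monocytes. Of 8119 genes tested, 84 were higher in the monocytes (1.03%) and 82 lower (1.01%), with a median of −0.01 over all genes. With the mouse as a block the counts were 255 and 219. With the monocytes of mouse 1 or mouse 2 left out they fell to 29 and 37 genes in all, and only 15 of the 50 genes named by the rule held their call without either mouse. They included the higher genes Ifitm6, Hbegf, Itgb7, Emp1, G0s2 and S100a8 and the lower genes Cd81, Mmp9, Apol7c, Stmn1, Hpgds, Pf4, Ccl8 and Dnase1l3. The macrophage gate did not exclude cells that held the monocyte selection genes. Of the kept cells with at least 3 of those genes, 114 and 101 were left out of the monocytes for their C1q UMIs. Those with a Ptprc UMI that passed neither the plasma cell nor the T cell gate entered the macrophage class. Their effect on the comparison was not tested.

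Blood monocyte genes stood above the macrophages in both mice. Of 22 identity genes 9 were higher and 1 lower (median 1.19). Ifitm6, an interferon-induced transmembrane family member of monocytes and neutrophils, was at 259 and 250.3 CPM in the monocytes and 22.2 and 41.4 CPM in the macrophages (3.02 ± 0.34, adjusted p = 0.00893). Ly6c2 was at 717 and 539 CPM against 13.7 and 81.1 CPM (3.77 ± 0.71, adjusted p = 0.0457), and Vcan at 283 and 258 CPM against 5.13 and 36.3 CPM (3.79 ± 0.64, adjusted p = 0.0327). The macrophages of mouse 2 held more of both genes than those of mouse 1, and both lost their call when the monocytes of either mouse were left out. Whether macrophages that also held the monocyte selection genes carried these levels was not tested. F13a1 did not pass, at 288 and 299 CPM against 2.28 and 38.0 CPM (3.97 ± 0.81, adjusted p = 0.0544). Cx3cr1, the fractalkine receptor that rises as monocytes mature, was lower at 122 and 117 CPM against 264 and 379 CPM (-1.43 ± 0.28, adjusted p = 0.0496), a call also lost without the monocytes of either mouse.

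Hbegf was higher than in macrophages, at 124 and 85.9 CPM against 15.4 and 16.1 CPM (2.71 ± 0.30, adjusted p = 0.00817). Itgb7, a chain of the gut-homing integrin, was at 89.0 and 85.9 CPM against 10.3 and 11.8 CPM (2.97 ± 0.29, adjusted p = 0.00703). Both genes stood at similar levels in the 2 mice. Clec4e was at 239 and 185 CPM against 13.1 and 34.6 CPM (3.19 ± 0.41, adjusted p = 0.014), a call lost without the monocytes of either mouse. G0s2, an inhibitor of fat breakdown, was higher by a pooled ratio of 429 (95% exact interval 118 to 3559), but 6 and 4 cells held its 266 and 109 UMIs, and 2 and 0 UMIs remained without the cells that hold 2 neutrophil markers. S100a8, itself 1 of these neutrophil markers, was at 853 and 135 CPM against 1.71 and 1.69 CPM and behaved likewise, with 405 of 518 and 73 of 91 UMIs in 1 cell of each mouse.

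Genes of mature gut macrophages were lower. Of 17 tissue macrophage genes none was higher and 7 lower (median −1.83). Cd81, a tetraspanin, was at 26.4 and 11.8 CPM against 427 and 288 CPM (-4.26 ± 0.38, adjusted p = 0.00572). Apoe was at 1735 and 1852 CPM against 10330 and 6550.5 CPM (-2.25 ± 0.31, adjusted p = 0.0163), and Stab1, a scavenger receptor, at 21.4 and 28.1 CPM against 122 and 190.1 CPM (-2.64 ± 0.31, adjusted p = 0.0111), the latter lost without the monocytes of either mouse. The C1q genes that set the 2 classes apart are no finding. Cd81, Apoe and Stab1 were not part of the rule, but any gene that goes with C1q in the same cells is partly parted by the same gate. How far this holds for the genes given here was not tested. Dnase1l3, a secreted DNA-digesting enzyme, had no UMI in the monocytes and was at least 29.9-fold lower (adjusted p = 0.00723). Ccl8, a chemokine of resident macrophages, was at least 15.2-fold lower (adjusted p = 0.00893), and Pf4 was lower by a pooled ratio of 583 (95% exact interval 104 to 23040) (adjusted p = 0.00572). Mmp9, gelatinase B, was at 28.0 and 23.7 CPM against 214 and 234 CPM (-3.12 ± 0.23, adjusted p = 0.00572), and its monocyte UMIs all came from cells that hold 2 neutrophil markers.

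Class II was lower than in macrophages in 3 of 12 genes and higher in none (median −0.89). H2-Ab1 was at 1719.7 and 1196 CPM against 5938 and 4206 CPM (-1.82 ± 0.29, adjusted p = 0.0277), H2-Aa at 1973 and 1364 CPM against 6796 and 4591 CPM (-1.79 ± 0.31, adjusted p = 0.0333) and Cd74 at 5889 and 4157 CPM against 19355 and 12173 CPM (-1.67 ± 0.32, adjusted p = 0.0477). In all 3 both monocyte values lay below both macrophage values, although each call was lost when the monocytes of either mouse were left out. Cell cycle genes were lower in 3 of 11 (median −3.36), with Mki67 at 2 and 1 UMIs against 91 and 75.

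Inflammatory genes did not part the classes in the same way. None of 10 cytokines passed (median 0.60), at 0 higher and 0 lower, with Osm at 346 and 419 CPM against 24.0 and 168 CPM (2.03 ± 0.74, adjusted p = 0.238) and Il1rn at 181 and 244 CPM against 109.5 and 109.8 CPM (0.95 ± 0.26, adjusted p = 0.122). Of 21 NF-κB genes 1, Ier3, was higher (median 0.65), and of 17 chemokines none was higher and 3 lower (median 0.37), Ccl8, Pf4 and Ccl12. Cxcl2 was at 1380.4 and 1188 CPM against 950.3 and 705 CPM (0.62 ± 0.85, adjusted p = 0.802). With 2 mice a gene that misses the threshold is not shown to be equal: in simulated counts for this comparison 65% of genes changed 4-fold and 13% of genes changed 2-fold were called. The other lists gave 0 higher and 1 lower of 15 transcription factors (median 0.19), 2 and 2 of 22 receptors (0.21), 2 and 0 of 22 sensors (0.36), 1 and 0 of 21 interferon genes (0.58), 1 and 0 of 12 killing genes (0.36), 0 and 1 of 14 lysosomal genes (−0.55), 4 and 3 of 16 matrix and clotting genes (1.48), 1 and 0 of 18 glycolytic genes (0.41), 3 and 1 of 14 adhesion genes (0.82) and 0 and 3 of 9 eicosanoid genes (−0.70). None of 10 iron genes (−0.28), 6 methionine cycle genes (−0.03) or 14 immediate early genes (0.23) passed in either direction.

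The dendritic cells (90 and 63 cells with at least 3 of 8 dendritic markers) differed in more genes. Cells that met the monocyte rule were taken out before the dendritic gate, so no dendritic cell held 3 of the selection genes. The 4 cells of mouse 1 that met the rule and also held at least 3 dendritic markers thus counted as monocytes. The macrophage class could hold such cells, so the numbers of called genes in the 2 comparisons are partly set by the gates. How far this holds was not tested. Of 8111 genes tested, 568 were higher in the monocytes (7%) and 407 lower (5.02%), with a median of −0.02. With the monocytes of mouse 1 or mouse 2 left out the counts were 353 and 195 or 260 and 62. Of the 89 genes named by the rule 62 held their call without either mouse. Cebpb was at 1685 and 2269 CPM in the monocytes and 61.2 and 41.8 CPM in the dendritic cells (5.29 ± 0.33, adjusted p = 0.000445) and Apoe at 1735 and 1852 CPM against 63.5 and 38.4 CPM (5.15 ± 0.36, adjusted p = 0.000529). Irf8, a factor of dendritic cell development, was lower at 244 and 161 CPM against 701 and 1422 CPM (-2.32 ± 0.36, adjusted p = 0.00737).

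Some inflammatory and clotting genes were scarce in the dendritic cells, although Il1b, a selection gene, was found in 35.6% and 12.7% of them. Il1rn was at 181 and 244 CPM against 4.71 and 1.67 CPM (5.87 ± 0.39, adjusted p = 0.000445) and Osm at 346 and 419 CPM against 0.785 and 6.68 CPM (7.09 ± 1.13, adjusted p = 0.00821). Several genes had no UMI in the dendritic cells of either mouse: Msr1, a scavenger receptor, was at least 35.5-fold higher in the monocytes (adjusted p = 0.000445), F10 at least 24.8-fold higher (adjusted p = 0.000854), Ccl2 at least 19.8-fold higher (adjusted p = 0.00745) and Mgst1, a microsomal glutathione transferase, at least 36.6-fold higher (adjusted p = 0.00145). F13a1, with 1 UMI in the dendritic cells of each mouse, was higher by a pooled ratio of 275 (95% exact interval 75.7 to 2282) (adjusted p = 0.00721). The matrix, clotting and repair list was higher in 14 of 16 genes and lower in none (median 6.56). Of these 16 genes 6 had no UMI in the dendritic cells, F10, Mmp19 and Mmp9 among them, and with such genes set to their bound the median was 2.57.

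Plac8 and Ly6c2 did not pass the test against the dendritic cells, for which 71% of genes changed 4-fold and 8% of genes changed 2-fold were called in simulated counts. Plac8 was at 3688 and 3393 CPM against 2725 and 3416 CPM (0.27 ± 0.18, adjusted p = 0.388) and Ly6c2 at 717 and 539 CPM against 330.3 and 667 CPM (0.40 ± 0.62, adjusted p = 0.725). The dendritic gate also held Siglech, a marker of plasmacytoid dendritic cells, which share Ly6C with monocytes, at 440.1 and 1307 CPM. Class II genes were lower in 5 of 12 and higher in 1 (median −0.62), with H2-DMb2 at 39.5 and 26.7 CPM against 185 and 140.4 CPM (-2.26 ± 0.29, adjusted p = 0.00412). H2-Ab1 was at 1719.7 and 1196 CPM against 4422 and 3145 CPM (-1.33 ± 0.28, adjusted p = 0.0241), a call lost without the monocytes of mouse 2. The gene that was higher, Ctss, is the cathepsin that trims the invariant chain, at 1950.4 and 2026 CPM against 782 and 769 CPM (1.42 ± 0.19, adjusted p = 0.00464). Itgae was lower at 4.94 and 1.48 CPM against 329 and 214 CPM (-6.34 ± 0.50, adjusted p = 0.000647), and Tfrc, the transferrin receptor, at 11.5 and 5.92 CPM against 60.4 and 85.2 CPM (-2.98 ± 0.39, adjusted p = 0.00427).

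The other lists against dendritic cells gave 14 higher and 0 lower of 22 identity genes (median 2.12), 6 and 1 of 15 transcription factors (1.24), 5 and 0 of 10 cytokines (3.05), 8 and 0 of 17 chemokines (2.18, or 1.94 with genes at 0 at their bound), 11 and 1 of 21 receptors (1.35), 11 and 0 of 22 sensors (1.63), 8 and 0 of 21 NF-κB genes (1.00) and 7 and 1 of 21 interferon genes (1.33). They gave 8 and 1 of 17 tissue macrophage genes (2.14), 6 and 0 of 12 killing genes (1.34), 6 and 1 of 14 lysosomal genes (0.44), 2 and 2 of 10 iron genes (0.63, or 0.37 at the bound), 7 and 0 of 18 glycolytic genes (0.83), 3 and 1 of 13 adhesion genes (0.01), 3 and 2 of 9 eicosanoid genes (0.68), 4 and 0 of 14 immediate early genes (1.02) and 0 and 6 of 11 cell cycle genes (−3.57). None of 6 methionine cycle genes passed in either direction (0.44). The comparisons with macrophages and dendritic cells used the same monocyte sums, and their values stand side by side without a test between them.

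The monocytes varied among themselves along Ly6c2, which the rule did not use. A Ly6c2 UMI was found in 47 of 68 and 55 of 99 cells (69.1% and 55.6%), against 4.95% and 1.00% of T cells, and after thinning in 37.9% and 28.8% of the monocytes and 1.72% and 0.395% of the T cells. Cells with a UMI were deeper than those without, with medians of 8773 and 6824 UMIs against 8098 and 6249 and 25th percentiles of 7291 and 4822 against 3894 and 3227. Of 4472 genes tested between them, 3 were higher in the Ly6c2-positive cells (0.0671%) and 3 lower (0.0671%), while 398 had an unadjusted p under 0.05. DESeq2 called 50 genes, and 102 were called when the mouse entered as a block. With the Ly6c2-positive cells of mouse 1 left out F13a1 alone was called (254 genes at an unadjusted p under 0.05), and with those of mouse 2 left out the edgeR test called 0 genes (141). After thinning each cell to 1000 UMIs 585 genes could be tested, and 0 were called higher and 2 lower by edgeR (48 at an unadjusted p under 0.05), G0s2 being the 1 shared with the unthinned cells. F13a1 was then at an adjusted p of 0.0507, and Ifitm6 could not be tested.

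The higher genes F13a1 and Ifitm6 are typical of blood monocytes. F13a1 was at 412 and 515 CPM in the Ly6c2-positive and 15.9 and 17.1 CPM in the Ly6c2-negative cells (4.74 ± 0.38, adjusted p = 0.00267) and Ifitm6 at 357 and 395 CPM against 42.3 and 61.4 CPM (2.78 ± 0.33, adjusted p = 0.022). Without the cells that hold 2 neutrophil markers, F13a1 was at 303 and 381 CPM against 25.3 and 20.4 CPM in 39 and 46 positive and 14 and 38 negative cells, a smaller gap in the same direction that was not tested. Ifitm6 was then at 291 and 346 CPM against 59.1 and 73.6 CPM.

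The 3 lower genes rested on few cells. Mmp12, the macrophage elastase, was at 2.39 and 10.5 CPM against 386 and 205 CPM (-5.50 ± 0.59, adjusted p = 0.0184), and 66 of 74 UMIs in mouse 1 and 30 of 64 in mouse 2 came from 1 cell each. G0s2 was at 4.79 and 10.5 CPM against 1395 and 358 CPM (-6.84 ± 0.81, adjusted p = 0.022), and Cd63, a tetraspanin of late endosomes and granules, at 0 and 0 CPM against 169 and 92.1 CPM, at least 11.7-fold lower (adjusted p = 0.0282). Both vanished with the cells that hold 2 neutrophil markers: in the Ly6c2-negative cells G0s2 then stood at 0 and 0 CPM and Cd63 at 8.44 and 0 CPM. Mmp12 stood at 608 and 114 CPM there.

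**Figure D4:**
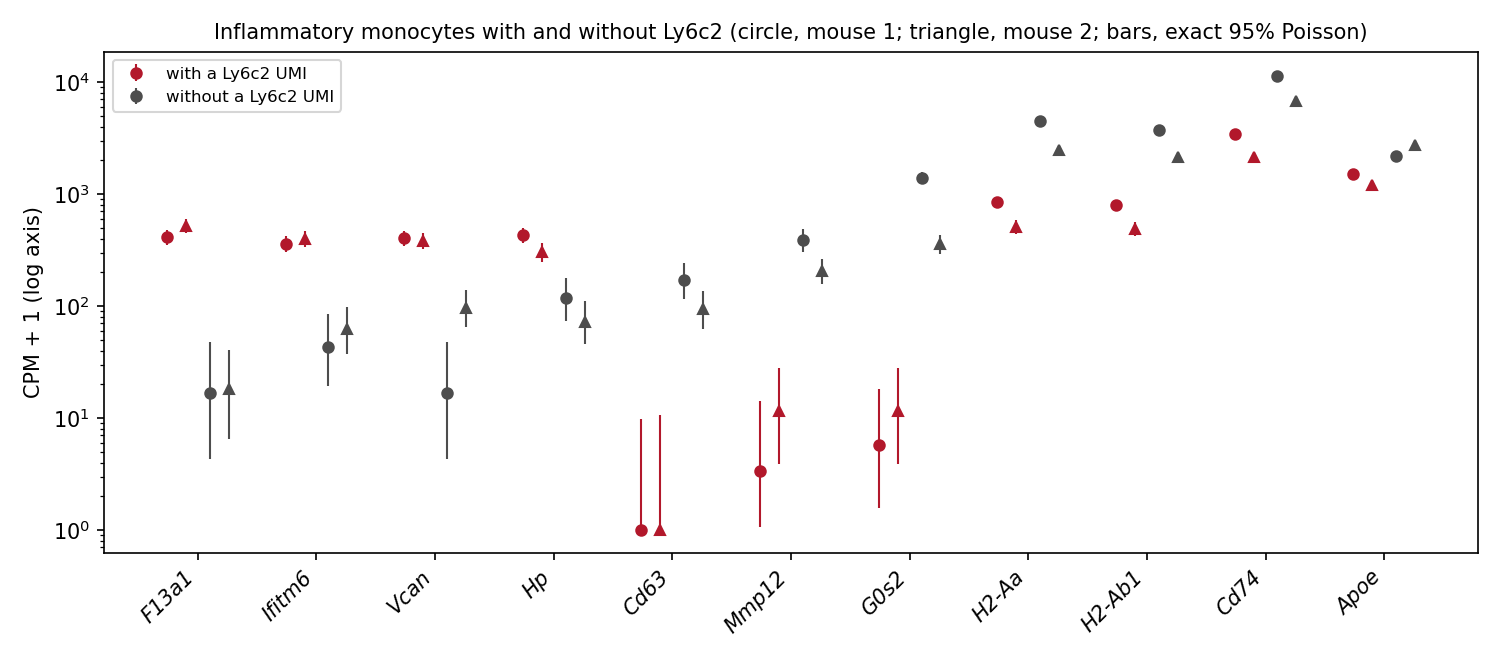
Level (CPM plus 1, log axis) of 11 genes in the summed UMIs of monocytes with (red) and without (grey) a Ly6c2 UMI; circles are mouse 1, triangles mouse 2 and bars exact 95% Poisson intervals of the counts. F13a1 and Ifitm6 lie above in the positive cells of both mice and Cd63, Mmp12 and G0s2 below.

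Class II went the other way along the same split without passing the test. Cd74 was at 3465 and 2129.8 CPM in the positive and 11242 and 6799.7 CPM in the negative cells (-1.74 ± 0.34, adjusted p = 0.11) and H2-Ab1 at 799 and 487 CPM against 3752 and 2122 CPM (-2.24 ± 0.36, adjusted p = 0.0869). 22 of 47 and 13 of 55 positive cells held at least 3 class II UMIs, compared with 13 of 21 and 26 of 44 negative cells. How far the 4 cells of mouse 1 with at least 3 dendritic markers bear on this split was not tested. None of 11 class II genes passed (median −1.25). Of 21 identity genes 3 were higher (median 1.09) and the rest did not pass, among them Lyz2 at 10719 and 10926 CPM against 3848 and 4500.2 CPM (1.33 ± 0.22, adjusted p = 0.0869). Nor did the chemokine gene Ccl2, at 617 and 165 CPM against 0 and 13.6 CPM (5.48 ± 0.90, adjusted p = 0.0869). Il1rn was at 127 and 162 CPM against 301 and 351 CPM (-1.22 ± 0.29, adjusted p = 0.195). In simulated counts of this size 69% of genes changed 4-fold and 6% of genes changed 2-fold were called.

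Of the other lists, the matrix genes gave 1 higher and 1 lower of 10 (median 0.32), the adhesion genes 1 and 0 of 11 (0.50) and the tissue macrophage genes 0 and 1 of 12 (−0.57). No gene passed in either direction among 13 transcription factors (0.07), 6 cytokines (0.22), 12 chemokines (0.27), 20 receptors (−0.11), 15 sensors (0.21), 19 NF-κB genes (−0.53), 16 interferon genes (0.77), 11 killing genes (0.34), 14 lysosomal genes (0.27), 5 iron genes (−0.45), 14 glycolytic genes (−0.05), 7 eicosanoid genes (−0.52), 4 methionine cycle genes (−0.47), 14 immediate early genes (−0.13) and 1 cell cycle gene (−0.45).

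The monocytes of the 2 mice could be compared only as single libraries, without a test. Of 3501 genes with at least 50 UMIs in the monocytes of both mice together, 414 had exact 95% Poisson intervals that lay apart, 204 with the higher level in mouse 2 and 210 in mouse 1. The genes furthest apart included several carried by single cells and several typical of other cell types. Prap1, an enterocyte gene, was at 2217 CPM in mouse 1 (2100 to 2339) and 2.96 CPM in mouse 2 (0.359 to 10.7), with 674 of 1346 UMIs in 1 cell and 243 CPM left in mouse 1 without the cells that hold 2 neutrophil markers. Epcam, the epithelial adhesion molecule, had 131 UMIs in 8 cells of mouse 1, 24 of them outside the neutrophil-marker cells, and none in mouse 2, and Ctrb1, a pancreatic zymogen, had 115 UMIs spread thinly over 49 cells of mouse 1 and none in mouse 2. In mouse 2 the higher genes included Cxcl10 at 326 CPM (284 to 372) against 24.7 CPM (13.8 to 40.8), and Spp1 at 127 CPM against 11.5 CPM with 64 of 86 UMIs in 1 cell. Hspa1a, a heat shock chaperone, was at 169 CPM (139 to 203) against 44.5 CPM (29.3 to 64.7) and was spread over 35 and 11 cells, as was Cd38, an NAD-consuming surface enzyme, over 29 and 12 cells at 84.4 CPM (63.9 to 109) against 21.4 CPM (11.4 to 36.6). In both mice these last 2 genes were thus seen in several cells.

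**Figure D5:**
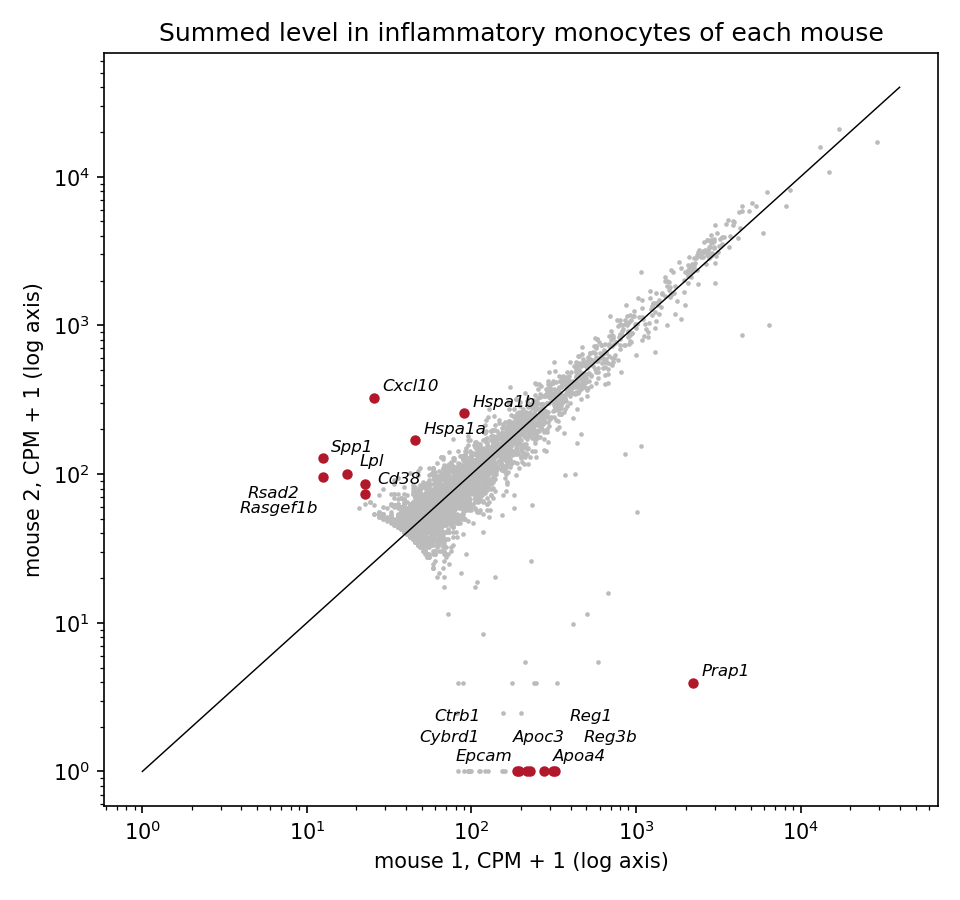
Level of each gene with at least 50 UMIs (CPM plus 1, log axes) in the summed UMIs of the monocytes of mouse 1 (horizontal) and mouse 2 (vertical), with a line of equal level and the 16 named genes in red. Prap1, at 2217 and 2.96 CPM, lies far below the line, and Cxcl10, at 24.7 and 326 CPM, above it.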

How the data were processed

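Single-cell RNA of the proximal small intestine of 2 mice was sequenced with the 10x Genomics 3′ method after a dye-based sort for live cells. The authors aligned and counted the reads with Cell Ranger 6.1.2 on the mouse build mm10, per the submitters' processing notes, and deposited raw UMI counts per gene and barcode (9645 and 8800 barcodes, 85670711 and 38716743 UMIs in all). The annotation release was not given in the sources used here.

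Barcodes with over 100 genes, over 400 UMIs, under 5% mitochondrial and under 10% haemoglobin UMIs were kept. Comparison cells were gated, in this order, from kept Ptprc-positive cells outside the rule: plasma cells by at least 10 UMIs of Mzb1, Derl3 and Xbp1, T cells by a Cd3 UMI, macrophages by at least 3 C1q UMIs, dendritic cells by at least 3 of Flt3, Zbtb46, Xcr1, Clec9a, Cd209a, Clec10a, Itgax and Ccr7, and B cells by 2 of 4 B cell markers. UMIs were summed per mouse and class (607069 and 675297 for the monocytes) and tested with edgeR 4.0.16 in R 4.3.3 (quasi-likelihood test, TMM, edgeR's filter on low counts, Benjamini-Hochberg adjustment over all genes tested, threshold 0.05). Errors beside log2 differences are standard errors derived from the F value of the test, with n = 2 mice. The p-values measure no more than the spread between 2 animals, estimated with information shared across genes. The tests against macrophages and dendritic cells came from 1 fit, in which monocytes, macrophages and dendritic cells shared 1 estimate of spread. The 15 genes of the rule were fitted and adjusted with the rest but got no call and entered no count. Against the dendritic cells the same was done with the 8 dendritic markers. Along Ly6c2 only Ly6c2 was left out in this way. Sums of the same mouse come from the same animal and are thus paired, and a model with a term for the mouse was 1 alternative and DESeq2 1.42.0 another. The tests were checked on simulated counts with 100 genes changed 4-fold and 100 changed 2-fold in each comparison. The shares called there depend on how many genes were changed. Scrublet ran in scanpy 1.11.5 under Python 3.11.15, and exact intervals came from scipy 1.17.1. They cover counting error only.

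The members, lists and tests were chosen with earlier results of these data known. Genes were named by rule: the 12 higher and 8 lower genes with the largest changes at 50 CPM or more, up to 4 called genes of each list, and between mice up to 8 genes in each direction. Other genes are examples chosen after their values were seen. Alternatives changed the test, scaling, filters, gates and depth, and the omission of neutrophil-marker cells, of other-class markers without a Jchain limit and of 1 mouse's monocytes was added after seeing the data. Some genes that entered the tests and counts are not reported here by name.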

Additional observations from a re-analysis of the deposited data

Results flagged for a closer look

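Among the barcodes removed for low quality, 6 in mouse 1 and 20 in mouse 2 met every marker condition of the monocyte rule, out of 1704 and 1843 removed. These barcodes were outside every comparison, and all of them had at least 5% mitochondrial UMIs.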

How the results depend on the processing

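Counts of called genes moved more than their directions. Without the filter on low counts 3202 genes were called against the other Ptprc-positive cells in place of 2068, 838 in place of 166 against the macrophages, 1904 in place of 975 against the dendritic cells and 256 in place of 6 between Ly6c2-positive and Ly6c2-negative cells. With the mouse as a block 3945, 474 and 102 genes were called in the first, second and last of these, and no named gene lost its call. DESeq2 called 284 genes against the macrophages and 50 along Ly6c2, and leaving out cells with markers of other classes gave 266 against the macrophages. Thinning gave 2 along Ly6c2. With the monocytes of 1 mouse left out, the calls ranged from 920 to 1393, from 29 to 37, from 322 to 548 and from 0 to 1 in the same order, the remaining mouse being assumed to vary like the other classes. The share of cells was 1.10% in mouse 1 with Ptprc-positive cells as the base and 1.85% in mouse 2 after thinning.

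In 3 genes the direction was not kept, and 1 of them, Lcn2, is itself a neutrophil marker. Lcn2 against the other cells was −7.74 (adjusted p = 0.311) and Mmp9 against the dendritic cells 0 (adjusted p = 1) without the cells that hold 2 neutrophil markers, where the monocytes had no UMI of either gene left, and Itga1 was 0.62 (adjusted p = 0.320) with the gated classes weighted equally, for which the cause was not tested. The planned omission of cells with 3 Jchain UMIs was not run because too few monocytes of mouse 1 were left, and along Ly6c2 neither the 4-gene rule, the Ptprc condition nor the omission of marker-holding cells left 20 cells in each sum.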
